A study of Mus musculus with 11 samples.

Results

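Phosphodiesterases of the Pde gene families were followed over 11 expression arrays of mouse CD4 T cells: Pde3b, Pde2a, Pde4a, Pde4b, Pde4d, Pde7a and Pde8a. These 7 genes are 7 of the 18193 genes measured, and their 22 probe sets are 22 of 34945 probe sets with a single gene symbol. The genes were chosen by measured values of these same arrays, so their differences between groups are given as a description and without a test. A gene with several probe sets is represented by the brightest, judged on its mean over all 11 arrays. Values are log2 signals, on which a step of 1 is a 2-fold change of signal. Of the 22 probe sets, 17 had a mean above background in at least 1 group and 5 did not. Background was a log2 signal of 3.99, the highest signal among Foxp3 on the TN arrays and Y-linked genes on the GFPKO arrays.

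The study concerned the genes that differ as CD4 T cells become regulatory T cells under the transcription factor Foxp3. The TN group (3 arrays) is of naive CD4 T cells negative for Foxp3. The Treg group (5 arrays) is of CD4 T cells positive for Foxp3. The GFPKO group (3 arrays) is of GFP-positive CD4 T cells of Foxp3GFPKO/WT mice, which carry a Foxp3 allele that expresses GFP and is known as a null allele, beside a wild-type allele. All mice were 6 to 8 weeks old, and in every group the cells came from spleen and lymph node, were purified with a Dynal kit for CD4 and were sorted on GFP in 2 rounds. Whether a group's arrays stem from different mice is not in the labels, so the spread and the p-values measure differences between these samples, which may be technical.

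A phosphodiesterase ends the signal of a cyclic nucleotide by hydrolysing cAMP or cGMP. Receptors coupled to Gs activate adenylyl cyclases, the cAMP formed activates protein kinase A and EPAC, and the kinase phosphorylates CREB. Regulatory T cells are known for a high content of cAMP, and Pde3b is known as a gene that Foxp3 represses. Pde3b and the Pde4 genes encode enzymes for cAMP, with PDE3B inhibited by cGMP and activated by insulin signalling. PDE7A and PDE8A are specific for cAMP and withstand many common inhibitors. PDE2A hydrolyses both nucleotides and is stimulated by cGMP.

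The RefSeq promoter table (mouse build GRCm38.p6) held 14 promoter windows for 5 of the 7 genes, namely Pde2a, Pde4a, Pde4b, Pde4d and Pde8a. The 250 bases before a start site were searched on both strands for TGACG, the core of the cAMP response element that CREB binds. It was present in 3 of the 14 windows and in 17.8% of 32851 windows of the same length. The windows below belong to Pde4b and Pde4d, lower on the arrays labelled Treg, and to Pde8a, higher on them, and show where these letters lie in genes of opposite direction. They are chr4:102421305-102421554, chr13:108653927-108654176 and chr7:81213015-81213264, all on the plus strand, written 5′ to 3′, and capitals mark TGACG or its complement CGTCA.
Pde4b: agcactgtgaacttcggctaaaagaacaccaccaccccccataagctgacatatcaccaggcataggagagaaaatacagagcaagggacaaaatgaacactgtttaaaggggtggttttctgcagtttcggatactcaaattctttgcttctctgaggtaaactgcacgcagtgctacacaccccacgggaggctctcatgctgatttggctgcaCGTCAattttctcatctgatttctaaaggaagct
Pde4d: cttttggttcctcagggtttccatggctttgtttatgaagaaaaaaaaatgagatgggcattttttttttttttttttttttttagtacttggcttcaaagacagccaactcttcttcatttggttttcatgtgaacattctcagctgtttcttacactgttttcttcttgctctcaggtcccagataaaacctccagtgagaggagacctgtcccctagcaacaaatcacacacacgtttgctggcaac
Pde8a: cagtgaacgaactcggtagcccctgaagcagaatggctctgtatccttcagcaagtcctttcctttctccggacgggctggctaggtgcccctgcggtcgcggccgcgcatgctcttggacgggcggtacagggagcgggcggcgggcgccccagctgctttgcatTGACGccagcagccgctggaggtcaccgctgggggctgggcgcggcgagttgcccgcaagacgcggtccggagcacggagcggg
In the Pde4b window the match lies on the minus strand, and in the Pde8a window on the plus strand. The Pde4d window holds none, and neither do the other windows of Pde4b, which are not printed. The third match was in a window of Pde4a (chr9:21183851-21184100). The full element TGACGTCA, which contains TGACG, was in 0 of the 14 windows and in 1.55% of all windows. A forkhead motif, TGTTTAC, was in 0 of the 14 and in 3.17% of all. The letters TGACTCA of the AP-1 site were in 0 of the 14 and in 4.46% of all. TATAAA was likewise in 0 of the 14 and in 12.4% of all. A match is a description of the letters, not of a bound site.

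Before the members are compared, the labels need a limit. Foxp3 had a log2 signal of 3.34, 3.64, 3.62, 3.29 and 3.48 on the arrays labelled Treg and 3.99, 3.33 and 3.12 on the TN arrays, so its probe set lay at background in both groups. On the GFPKO arrays Foxp3 was at 6.75, 7.19 and 6.86. This signal is of RNA, so it shows neither which Foxp3 allele it came from nor that functional Foxp3 protein was made. The 5 arrays are therefore called the arrays labelled Treg throughout, and every direction below rests on that label. Over 12 markers of regulatory T cells the arrays labelled Treg had a mean log2 signal of 9.30 to 9.51, GFPKO 8.81 to 9.04 and TN 5.97 to 6.23. Xist, the RNA of the inactive X chromosome, had a group mean of 11.34 in GFPKO against 3.78 in TN and 3.67 in the arrays labelled Treg. Kdm5d, Uty and Eif2s3y, on the Y chromosome, had group means of 2.08 to 2.88 in GFPKO and 4.89 to 8.19 in the other groups. Sex and genotype cannot be told apart in a comparison with GFPKO. The 3′ minus 5′ difference of the actin probe sets, a sign of RNA integrity, was 0.48 ± 0.08 in TN (SD, n = 3), 0.53 ± 0.07 in the arrays labelled Treg (n = 5) and 0.68 ± 0.20 in GFPKO (n = 3). Array medians ran from 4.08 to 4.16.

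Pde3b was high in naive cells, close to that level in GFPKO cells and low on the arrays labelled Treg. Its log2 signal was 10.07, 10.20 and 9.97 on the TN arrays. It was 9.54, 9.27 and 8.84 on the GFPKO arrays. It was 5.47, 5.35, 5.40, 4.95 and 4.72 on the arrays labelled Treg. No groups overlapped: each TN array was above each GFPKO array, and each GFPKO array was above all 5 arrays labelled Treg by more than 3 log2 steps. Even the lowest of the arrays labelled Treg, replicate 5, was above the background level of 3.99.

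The group means of Pde3b were 10.08 ± 0.11 in TN (SD, n = 3), 9.21 ± 0.35 in GFPKO (n = 3) and 5.18 ± 0.33 in the arrays labelled Treg (n = 5). The log2 difference Treg minus TN was -4.90 ± 0.19 (SE), a signal 29.9-fold lower on the arrays labelled Treg. Only Pdlim4 and Klrd1, named here after their values were seen, had a lower fitted difference in that comparison among the 18193 genes. The difference Treg minus GFPKO was -4.04 ± 0.19, or 16.4-fold, and only Xist was lower. The difference GFPKO minus TN was smaller, at -0.86 ± 0.21, or 1.82-fold, and 232 genes had a lower one. The comparisons share arrays, so they are not separate observations. On the log2 scale the GFPKO mean lay 82.4% of the way from the Treg mean to the TN mean. In bulk samples, fewer cells that express the gene and less RNA per cell cannot be told apart.

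**Figure D1:**
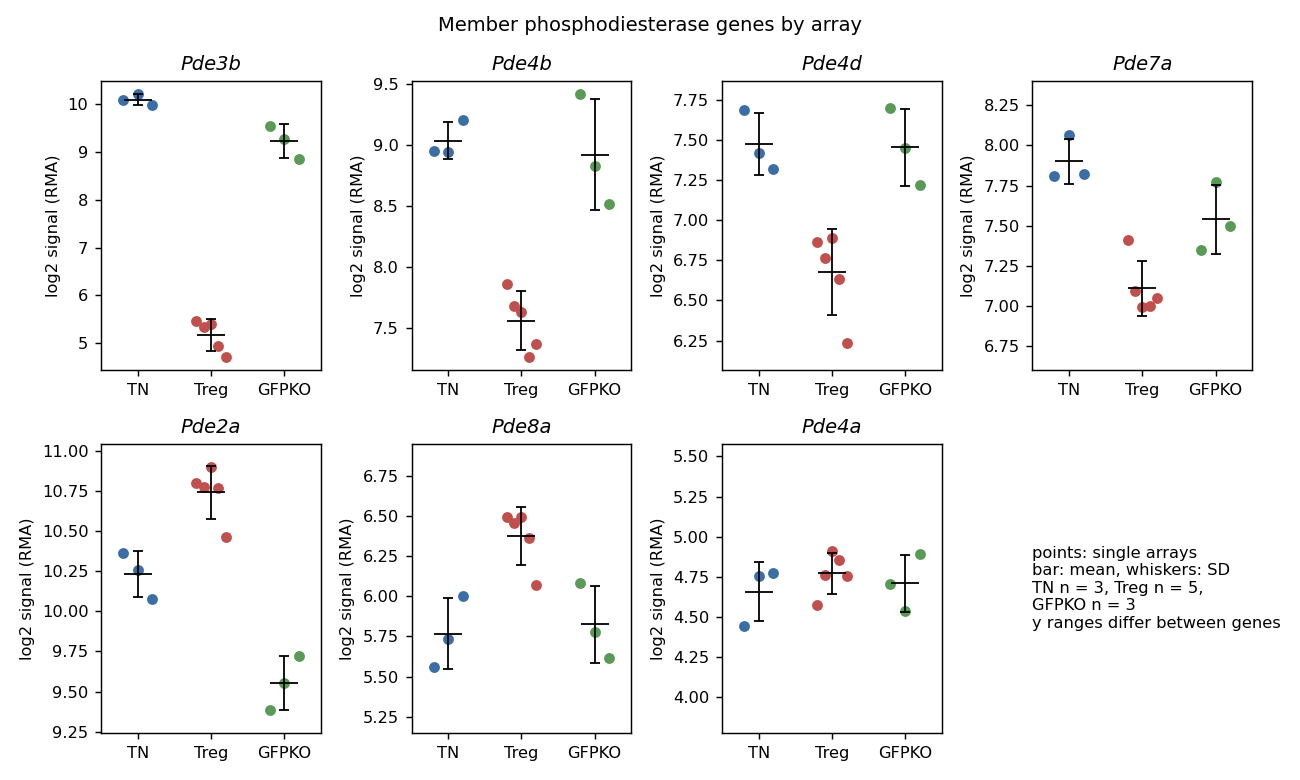
Log2 signal of the 7 genes on each array (points), with the group mean and SD (bars), for TN (n = 3), arrays labelled Treg (n = 5) and GFPKO (n = 3); the y ranges differ between genes. Pde3b has a mean of 10.08 in TN, 9.21 in GFPKO and 5.18 on the arrays labelled Treg, and Pde2a is the gene in which GFPKO lies below TN and the arrays labelled Treg above it.

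The Pde4 genes encode the main cAMP-specific phosphodiesterases of T cells and are the targets of rolipram. Pde4b had the next largest difference after Pde3b. Its log2 signal was 8.95, 8.94 and 9.21 on the TN arrays, 9.41, 8.83 and 8.52 on the GFPKO arrays, and 7.86, 7.67, 7.63, 7.26 and 7.37 on the arrays labelled Treg. All arrays labelled Treg were below all others, while GFPKO replicate 1 was above every TN array and replicates 2 and 3 were below every one, so TN and GFPKO overlapped. The log2 difference Treg minus TN was -1.48 ± 0.19 (SE), or 2.78-fold, and Treg minus GFPKO was -1.36 ± 0.19, or 2.57-fold. GFPKO minus TN was -0.11 ± 0.21, less than its error.

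Pde4d followed the same order at a smaller size. Its log2 signal was 7.69, 7.42 and 7.32 in TN, 7.70, 7.45 and 7.22 in GFPKO, and 6.87, 6.76, 6.89, 6.63 and 6.24 on the arrays labelled Treg. TN and GFPKO covered nearly the same range, and the arrays labelled Treg lay below both without overlap. The log2 difference was -0.80 ± 0.16 (SE) for Treg minus TN, 1.74-fold, and -0.78 ± 0.16 for Treg minus GFPKO, 1.71-fold. For GFPKO minus TN it was -0.02 ± 0.18. The GFPKO mean lay 92.2% of the way from the Treg mean to the TN mean for Pde4b and 97.6% for Pde4d.

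Pde4a, measured by 1 probe set, showed no such order. Its log2 signal lay between 4.44 and 4.91 on all 11 arrays, with group means of 4.66 ± 0.19 in TN (SD, n = 3), 4.77 ± 0.13 in the arrays labelled Treg (n = 5) and 4.71 ± 0.18 in GFPKO (n = 3). All 3 groups overlapped, and the log2 differences were 0.11 ± 0.13 (SE) for Treg minus TN, 0.06 for Treg minus GFPKO and 0.05 for GFPKO minus TN. All 11 signals lay within 1 log2 step of background.

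Pde7a encodes a cAMP-specific enzyme that is induced in activated T cells. Arrays gave log2 signals of 7.81, 8.06 and 7.82 in TN, 7.35, 7.77 and 7.50 in GFPKO, and 7.41, 7.09, 6.997, 6.999 and 7.05 on the arrays labelled Treg. TN was above both other groups, and replicate 1 of the arrays labelled Treg was above GFPKO replicate 1, so those groups overlapped. The log2 difference Treg minus TN was -0.79 ± 0.14 (SE), or 1.73-fold. GFPKO minus TN was -0.36 ± 0.15 and Treg minus GFPKO -0.43 ± 0.14. The GFPKO mean of Pde7a lay 54.5% of the way from the Treg mean to the TN mean, nearer the middle than for Pde3b, Pde4b and Pde4d.

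Pde2a ran the other way between TN and the arrays labelled Treg. Arrays gave log2 signals of 10.36, 10.25 and 10.08 in TN, 10.80, 10.77, 10.90, 10.76 and 10.46 on the arrays labelled Treg, and 9.38, 9.55 and 9.72 in GFPKO. No groups overlapped, with the arrays labelled Treg highest and GFPKO lowest. The log2 difference Treg minus TN was 0.51 ± 0.13 (SE), or 1.42-fold higher. GFPKO minus TN was -0.68 ± 0.15, or 1.60-fold lower, and Treg minus GFPKO was 1.19 ± 0.13, or 2.28-fold higher. Pde2a was the only member whose GFPKO mean lay outside the range between the TN and Treg means.

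Pde8a was also higher on the arrays labelled Treg. Arrays gave log2 signals of 5.56, 5.74 and 6.00 in TN, 6.09, 5.78 and 5.61 in GFPKO, and 6.49, 6.46, 6.49, 6.36 and 6.07 on the arrays labelled Treg. All arrays labelled Treg were above TN, and their lowest, replicate 5, was just under GFPKO replicate 1. The log2 difference was 0.61 ± 0.15 (SE) for Treg minus TN, 1.52-fold, 0.55 ± 0.15 for Treg minus GFPKO and 0.06 ± 0.17 for GFPKO minus TN. Single arrays recurred at the ends of their groups: replicate 5 was the lowest of the arrays labelled Treg in Pde2a, Pde3b, Pde4d and Pde8a. GFPKO replicate 3 was the lowest of its group in Pde3b, Pde4b, Pde4d and Pde8a, and GFPKO replicate 1 the highest in the same 4 genes.

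The remaining probe sets of each gene can be set beside the main values. All 7 probe sets of Pde7a were above background, and all were lower on the arrays labelled Treg than in TN, by a log2 difference between -1.27 and -0.60. Their difference Treg minus GFPKO ran from -1.25 to -0.26 and GFPKO minus TN from -0.56 to -0.02, so the place of GFPKO between the other groups depended on the probe set of Pde7a. For probe set 1438041_at the GFPKO mean was next to TN, at -0.02 against TN, while Treg minus GFPKO was -1.25.

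Pde4b had 6 probe sets, of which 3 were above background. Beside the main probe set 1442700_at, 1422474_at and 1422473_at were lower on the arrays labelled Treg than in TN by -0.70 and -0.75 on the log2 scale, less than the -1.48 of the main probe set. Against GFPKO they were lower by -0.36 and -0.55. All 3 probe sets of Pde2a were above background. 1452202_at gave a log2 difference of 0.57 for Treg minus TN, near the main 0.51, but 1447708_x_at gave 0.03. For GFPKO minus TN they gave -0.51 and -0.34, and for Treg minus GFPKO 1.08 and 0.37. The higher Pde2a signal on the arrays labelled Treg than in TN thus appeared in 2 of its 3 probe sets. Pde3b and Pde4a had 1 probe set each, and Pde4d and Pde8a had 1 above background and 1 below.

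**Figure D2:**
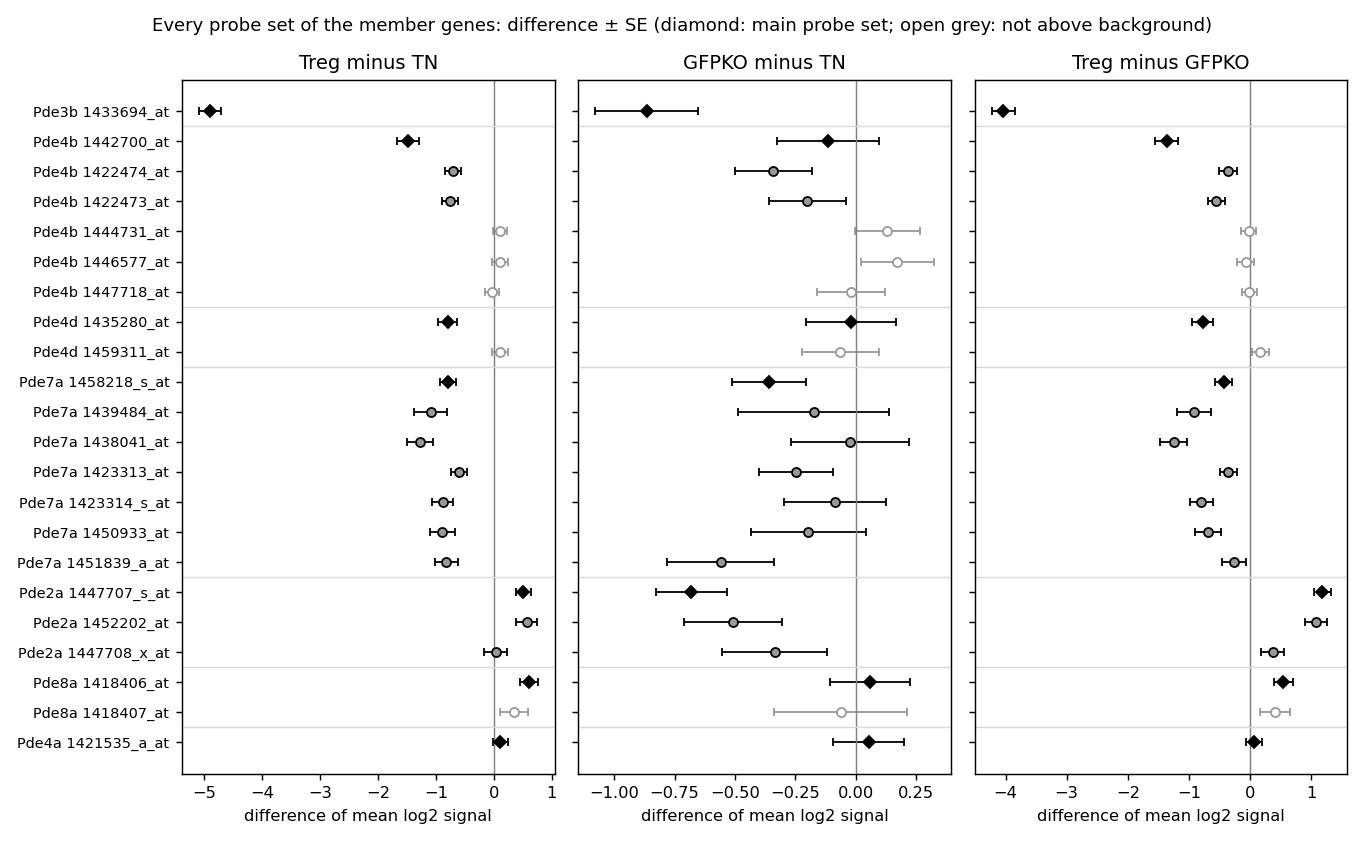
Log2 difference ± SE of every probe set of the 7 genes in the 3 comparisons, each panel with its own x range; diamonds are the main probe sets, filled circles other probe sets above background and open grey circles those at background. All 7 probe sets of Pde7a lie left of 0 for Treg minus TN, between -1.27 and -0.60, while the 3 of Pde4b above background spread from -1.48 to -0.70.

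The other cyclic nucleotide phosphodiesterases are those left after the members were chosen by measured values of these same arrays. Of 16 measured, 0 had an adjusted p under 0.05 by limma in any of the 3 comparisons. An unadjusted p under 0.05 was likewise found for 0. Of all genes limma called 9.97% in Treg minus TN, 5.66% in GFPKO minus TN and 9.43% in Treg minus GFPKO. Because of how the members were chosen, the 0 calls cannot show whether the differences were confined to them. Only 5 of the 16 were above background: Pde1b, Pde6d, Pde6g, Pde10a and Pde11a. Pde6d, which encodes a carrier of prenylated proteins rather than a catalytic subunit, had a log2 signal of 7.66 to 8.07 in TN, 8.01 to 8.23 on the arrays labelled Treg and 7.59 to 8.04 in GFPKO. Its groups overlapped. Pde1b, stimulated by calcium and calmodulin, ranged from 5.33 to 5.91 over the 11 arrays, with log2 differences of 0.11 ± 0.14 (SE), 0.18 ± 0.15 and -0.06 ± 0.14 for Treg minus TN, then GFPKO minus TN, then Treg minus GFPKO. Pde10a had a difference of 0.30 ± 0.15 for Treg minus TN, Pde6g of 0.07 and Pde11a of 0.02. The 11 others did not pass background, so nothing can be said of their direction.

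Genes whose profile over the 11 arrays was most like that of Pde3b were found by the root mean square difference of log2 signals after each gene was centred on its own mean. The nearest were Tdrp at 0.95, Lypd6b at 0.95, Pdlim4 at 0.95, Tgfbr3 at 0.98 and A530021J07Rik at 0.98. A distance of nearly 1 is large beside that of other members to their nearest genes, such as 0.14 between Pde2a and Chst15 and 0.13 between Pde8a and Zfp518b. A small range over the arrays gives small distances, so these values describe size as well as shape. Among the other members Pde4b was the nearest to Pde3b, at 1.55, with 36 genes nearer.

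The 5 genes shared the low level on the arrays labelled Treg and differed in the place of GFPKO. Tdrp had group means of 9.32 in TN, 6.26 on the arrays labelled Treg and 8.61 in GFPKO, with GFPKO 76.8% of the way up to TN. Tgfbr3, the co-receptor betaglycan of TGF-beta, had means of 10.11, 7.06 and 9.07, at 66.1% of the way. Lypd6b had 8.44, 4.13 and 6.07, at 45.0%. Pdlim4 was at background on the arrays labelled Treg, at least 77.3-fold lower than in TN and at least 8.34-fold lower than in GFPKO. A530021J07Rik was also at background there, and its GFPKO mean of 6.71 was above its TN mean of 5.98.

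**Figure D3:**
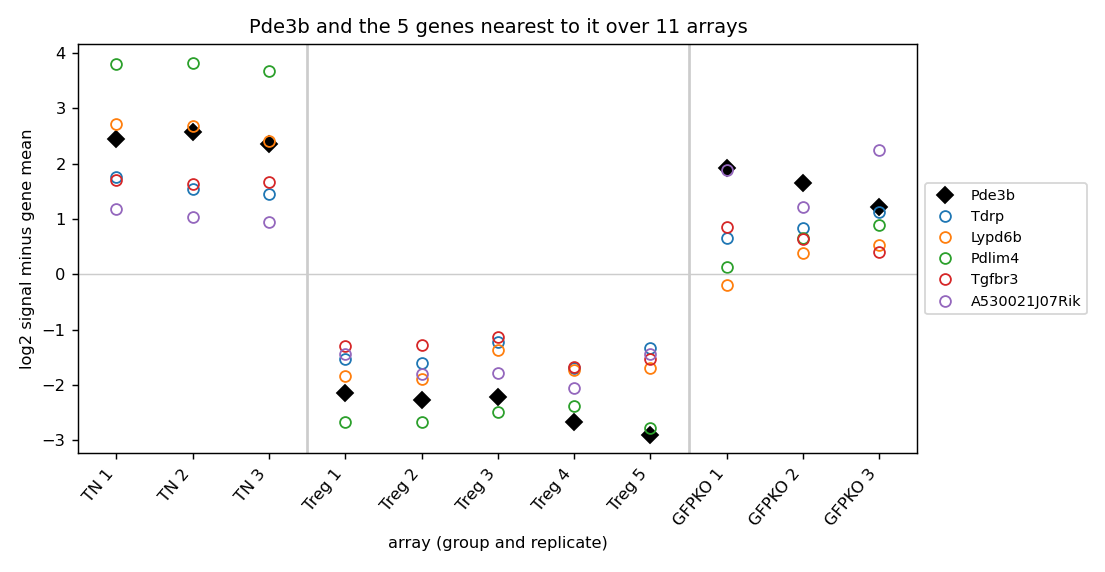
Log2 signal minus the gene's mean over 11 arrays for Pde3b (black diamonds) and the 5 genes nearest to it (open circles), array by array. All 6 genes are below 0 on the 5 arrays labelled Treg, and on each GFPKO array Pdlim4 and Lypd6b lie below Pde3b.

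The rest of the pathway was described with 10 lists of cyclic nucleotide signalling genes, 121 genes measured in all, from textbook knowledge. The lists were chosen with earlier results of these data known, so the shares called are a description. Of the 121 genes, 82 were above background in at least 1 group. In Treg minus TN limma called 22 of 121 at an adjusted p under 0.05, 13 higher and 9 lower, or 18.2%, against 9.97% of all genes. In GFPKO minus TN it called 14, 10 higher and 4 lower, or 11.6% against 5.66%. In Treg minus GFPKO it called 13, 5 higher and 8 lower, or 10.7% against 9.43%. The median log2 difference of the 121 genes was 0.06, 0.03 and 0.02 in these comparisons, and of all genes 0.03, -0.04 and 0.08. With array weights the counts were 37, 37 and 42, and the count in Treg minus GFPKO was 7 without GFPKO replicate 1, 24 without GFPKO replicate 3 and 8 without Treg replicate 3. The all-gene count in GFPKO minus TN, 1029, fell to 644 when TN replicate 1 was left out and stood at 1868 when GFPKO replicate 3 was. In Treg minus GFPKO it was 1716, with 1134 when GFPKO replicate 1 was left out and 3421 when replicate 3 was.

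The receptors that raise cAMP changed in both directions. Of 13 Gs-coupled receptors measured, 3 rose and 2 fell in Treg minus TN. In GFPKO minus TN 3 rose and 1 fell, and in Treg minus GFPKO 1 rose and 2 fell. The shares called were 38.5%, 30.8% and 23.1% in turn, against 9.97%, 5.66% and 9.43% of all genes. Vipr1, the receptor of vasoactive intestinal peptide, had a log2 signal of 8.43, 8.49 and 8.44 in TN, 4.81, 4.26, 4.76, 4.61 and 4.98 on the arrays labelled Treg, and 6.18, 6.66 and 7.03 in GFPKO. Its groups did not overlap, and its order of groups was that of Pde3b, with GFPKO nearer the middle. The log2 difference was -3.77 ± 0.18 (SE, limma adjusted p = 1.7e-09) for Treg minus TN, -1.83 ± 0.20 (adjusted p = 3.3e-05) for GFPKO minus TN and -1.94 ± 0.18 (adjusted p = 7.2e-06) for Treg minus GFPKO.

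The prostaglandin E2 receptor gene Ptger2 rose where Vipr1 fell. Its log2 signal was 6.46, 6.30 and 5.96 in TN, 9.38, 9.02, 9.19, 9.48 and 9.29 on the arrays labelled Treg, and 8.53, 8.75 and 8.75 in GFPKO. Both other groups were above TN without overlap, by 3.03 ± 0.14 (SE, limma adjusted p = 1.3e-09) and 2.44 ± 0.16 (adjusted p = 1.1e-07). Its difference Treg minus GFPKO, 0.59 with adjusted p = 0.016, was called under 16 of 19 alternatives, with an adjusted p of up to 0.10. It was lost with the actin difference as a covariate and without GFPKO replicate 1. Ptger4, another receptor of prostaglandin E2, rose by 1.14 (limma adjusted p = 0.00013) for Treg minus TN and by 0.93 (adjusted p = 0.0043) for GFPKO minus TN, the latter not called with the actin difference as a covariate (adjusted p = 0.092). Ptgir, the prostacyclin receptor, rose by 0.56 (adjusted p = 0.005) and 1.21 (adjusted p = 2.5e-05). Calcrl, which forms receptors for CGRP and adrenomedullin, fell by 1.61 for Treg minus TN (adjusted p = 0.0013).

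Among 17 adenylyl and guanylyl cyclases, 2 rose and 3 fell in Treg minus TN, 2 rose and 1 fell in GFPKO minus TN, and 1 fell in Treg minus GFPKO. As shares called these were 29.4%, 17.6% and 5.88%, against 9.97%, 5.66% and 9.43% of all genes. The 2 that rose are the subunits of soluble guanylyl cyclase, the nitric oxide receptor that makes cGMP, the nucleotide that stimulates PDE2A and inhibits PDE3B. Gucy1a1 was at background in TN (mean log2 signal 3.15), and was at least 3.06-fold higher on the arrays labelled Treg (mean 5.61, limma adjusted p = 3.8e-05) and at least 3.27-fold higher in GFPKO (mean 5.70, adjusted p = 0.00017). Gucy1b1 was at background in TN (3.30) and was at least 1.47-fold higher on the arrays labelled Treg (4.55, adjusted p = 0.0041) and at least 4.65-fold higher in GFPKO (6.21, adjusted p = 8.4e-06). Treg minus GFPKO for Gucy1b1 was -1.67 (adjusted p = 0.00069). The cyclases that fell in Treg minus TN make cAMP: Adcy5 by 0.48, Adcy6 by 0.95 and Adcy7 by 0.49 (limma adjusted p = 0.019, 0.0021 and 0.021). Adcy6 was called under all 19 alternatives. Adcy5 was not called with TN replicate 1, 2 or 3 or Treg replicate 3 left out, nor with the mean of its probe sets, where the adjusted p was 0.30. Adcy7 was not called with TN replicate 2 or 3 or Treg replicate 2 or 5 left out, at an adjusted p of up to 0.13. In GFPKO minus TN the 1 cyclase that fell was Adcy5, at -0.50 (limma adjusted p = 0.047). That call held under 5 of 19 alternatives, with an adjusted p of up to 0.48.

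Among the effectors, limma called 0 of 7 G protein alpha subunits and 0 of 7 EPAC and RAP genes in any comparison. Of all genes it called 9.97% in Treg minus TN, 5.66% in GFPKO minus TN and 9.43% in Treg minus GFPKO. In lists of 7 genes, 0 calls cannot be told apart from these shares. At an unadjusted p under 0.05 stood 0, 0 and 1 of the G protein genes and 2, 1 and 1 of the EPAC and RAP genes, with the comparison Treg minus TN first and Treg minus GFPKO last. Of 11 genes of protein kinase A, protein kinase G and their inhibitors, 6 were above background in at least 1 group. Of the 11, 1 fell in Treg minus TN and in GFPKO minus TN, or 9.09%. It was Prkar2a, a regulatory subunit, at -0.79 and -0.96 (limma adjusted p = 0.014 in both). Without TN replicate 1 or without TN replicate 2 neither difference of Prkar2a was called, with an adjusted p of up to 0.16 and 0.19 over the alternatives.

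Of 16 anchoring proteins, 1 rose and 1 fell in Treg minus TN, 2 rose in GFPKO minus TN and 2 fell in Treg minus GFPKO. That is 12.5% in each comparison, against 9.97%, 5.66% and 9.43% of all genes in turn. Akap1, the anchor at mitochondria, rose by 0.93 (limma adjusted p = 0.0037) and 1.08 (adjusted p = 0.0052) over TN. Neither was called with the mean of all its probe sets, with adjusted p = 0.15 in both. Of 13 partners of phosphodiesterases, 1 rose and 1 fell in Treg minus TN, 0 in GFPKO minus TN and 2 fell in Treg minus GFPKO. The shares called were 15.4%, 0% and 15.4%, beside the same shares of all genes. In GFPKO minus TN 3 of the partners had an unadjusted p under 0.05. Pik3cg, the kinase subunit known to bind PDE3B in heart, was at -0.65 for Treg minus GFPKO (adjusted p = 0.014), and was called under 15 of 19 alternatives, with an adjusted p of up to 0.15. It was lost with the actin covariate and without GFPKO replicate 1 or 2. Pik3r5, of the same list, was at -0.82 for Treg minus TN (limma adjusted p = 0.0071) and -0.65 for Treg minus GFPKO (adjusted p = 0.036). The 2 differences of Pik3r5 were called under 18 and 12 of 19 alternatives, with an adjusted p of up to 0.055 and 0.17.

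Of 10 CREB factors and cofactors, 2 rose in Treg minus TN and 2 in Treg minus GFPKO, and 0 were called in GFPKO minus TN, where 3 had an unadjusted p under 0.05. Crem, whose short form ICER represses cAMP-induced genes, had a log2 signal of 6.09, 5.85 and 5.46 in TN, 7.01, 7.16, 7.12, 6.71 and 6.90 on the arrays labelled Treg, and 6.09, 6.16 and 5.63 in GFPKO. The arrays labelled Treg were above both other groups, which overlapped. The log2 difference was 1.18 ± 0.17 (SE, limma adjusted p = 0.00015) for Treg minus TN, 1.02 ± 0.17 (adjusted p = 0.0011) for Treg minus GFPKO and 0.16 ± 0.19 (adjusted p = 0.77) for GFPKO minus TN. Crem therefore had its odd group in the same place as Pde4b, Pde4d and Pde8a, with GFPKO beside TN.

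Of 11 cAMP-induced transcripts, 4 rose and 1 fell in Treg minus TN, 3 rose and 1 fell in GFPKO minus TN, and 2 rose and 1 fell in Treg minus GFPKO. The shares called were 45.5%, 36.4% and 27.3%, against 9.97%, 5.66% and 9.43% of all genes. Nfil3, a transcription repressor, rose by 2.59 (limma adjusted p = 4.5e-08) and 2.25 (adjusted p = 1.6e-06) over TN. Dusp1, a phosphatase of MAP kinases, rose by 2.01 (adjusted p = 5e-06) and 1.19 (adjusted p = 0.0043). Nr4a1, an orphan nuclear receptor, rose by 1.19 (adjusted p = 2.9e-05) and 0.83 (adjusted p = 0.0046). Rgs2, an inhibitor of Gq and adenylyl cyclase signals, went against the list and was at -0.56 (adjusted p = 0.015) and -1.21 (adjusted p = 0.00013). The first of these was not called without TN replicate 1 or without TN replicate 2, with an adjusted p of up to 0.11 over the alternatives. Fos was the 1 that fell in Treg minus GFPKO, at -0.84 (limma adjusted p = 0.047). It was called under 9 of 19 alternatives, with an adjusted p of up to 0.38. The cAMP-induced transcripts also respond to other stimuli, antigen receptor signals among them.

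**Figure D4:**
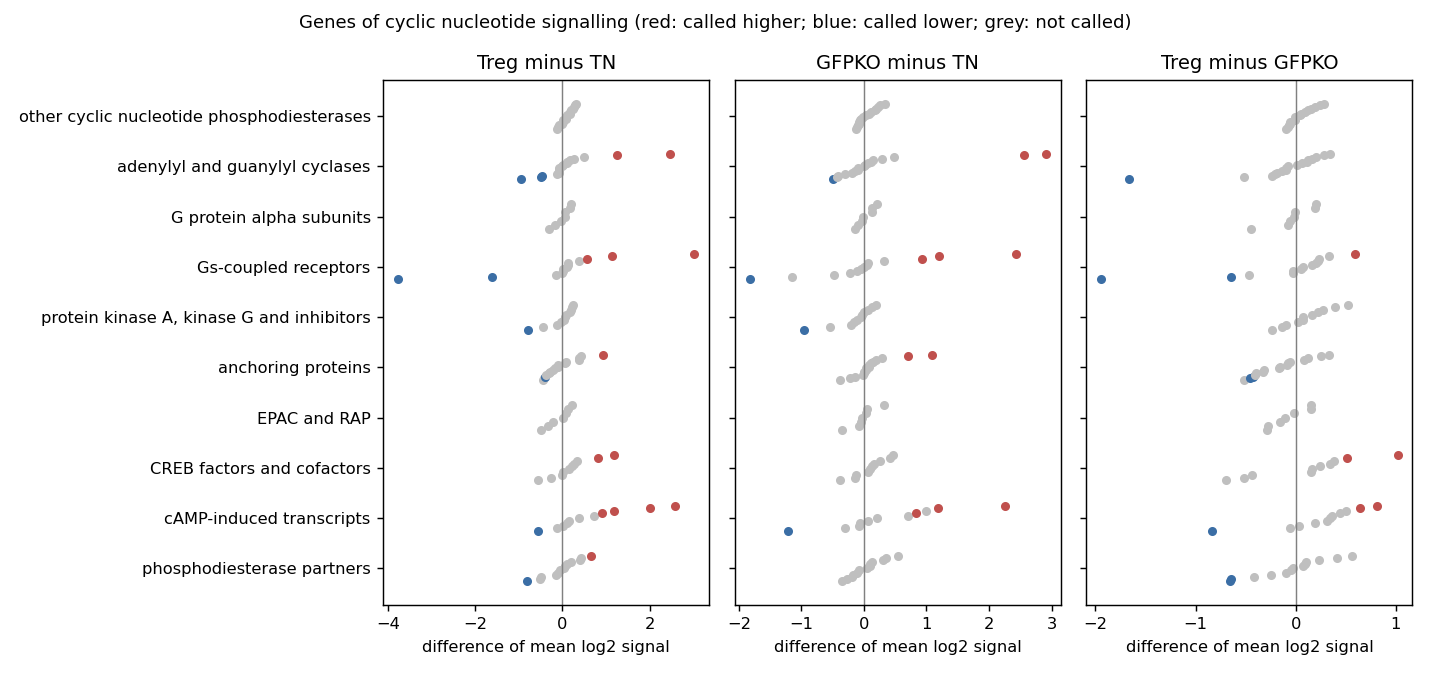
Log2 difference of each gene of the 10 signalling lists (points, 1 row per list) in the 3 comparisons, coloured where limma's adjusted p is under 0.05; each panel has its own x range. In Treg minus TN the points run from -3.77 for Vipr1 to 3.03 for Ptger2, both receptors, followed by Nfil3 at 2.59. The row of other phosphodiesterases, those left after the members were chosen on these same arrays, has no coloured point.

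Markers of T cell states and of other cells also differed between the groups. Naive T cell markers (8 genes, Pde3b not among them) had a mean log2 signal of 11.4 to 11.5 over the TN arrays, 10.8 to 10.9 over GFPKO and 9.95 to 10.1 over the arrays labelled Treg, so their order of groups was that of Pde3b. S1pr1 and Klf2 did not take this order, with GFPKO means of 10.58 and 11.85 above TN means of 9.94 and 11.69. Neither was called in GFPKO minus TN. Of the 8 naive markers, limma called 6 lower in Treg minus TN, 3 in GFPKO minus TN and 6 in Treg minus GFPKO. The part of this in the Pde3b, Pde4b, Pde4d and Pde7a differences was not tested. Myeloid and dendritic markers (19 genes) had a mean of 5.66 to 6.21 in TN, 4.50 to 4.72 on the arrays labelled Treg and 4.14 to 4.38 in GFPKO. Limma called 12 of 19 lower in each comparison with TN. Lyz2 went the other way, with means of 5.58 in TN, 7.02 on the arrays labelled Treg and 6.57 in GFPKO. It was called higher in Treg minus TN (limma adjusted p = 0.041). In TN 16 of the 19 were above background, led by the class II gene H2-Aa at a mean of 10.56, against 6.19 on the arrays labelled Treg and 5.34 in GFPKO, and Tyrobp was at 7.87, 4.56 and 4.58. Itgam, Cd14 and Xcr1 were at background in every group. Markers of NK and cytotoxic cells (10 genes) had list means of 5.72 to 6.00, 4.78 to 4.92 and 3.96 to 4.36 in the same order of groups. Of these 10, 7 were above background in TN, while Ncr1, Klra8 and Klre1 were at background. Klrd1 had means of 8.83, 3.15 and 3.96, Prf1 7.92, 5.71 and 5.32, and Ccl5 9.36, 8.92 and 5.25. Nkg7 was highest on the arrays labelled Treg, at 7.27, 7.99 and 6.40, and Gzma was at 5.07, 5.01 and 4.27. Limma called 4 of the 10 lower in Treg minus TN and 6 in GFPKO minus TN, with 0 higher in either. The part of the myeloid and NK markers in the differences from TN was not tested. The mean over 10 markers of B cells was between 3.56 and 4.13 on every array, but single genes differed in both directions. Limma called 1 of the 10 higher and 3 lower in Treg minus TN, and 1 higher and 4 lower in GFPKO minus TN. The 1 called higher in both was Cd79b, part of the B cell receptor. Its means were 4.36 in TN, 7.63 on the arrays labelled Treg and 6.02 in GFPKO. Spib, among those called lower in both, had means of 4.77, 3.09 and 3.30 in the same order of groups. The mean over 8 markers of CD4 T cells was 11.2 to 11.6 on every array, with Cd247 and Thy1 called lower in both comparisons with TN and Cd2 called higher in Treg minus TN.

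**Figure D5:**
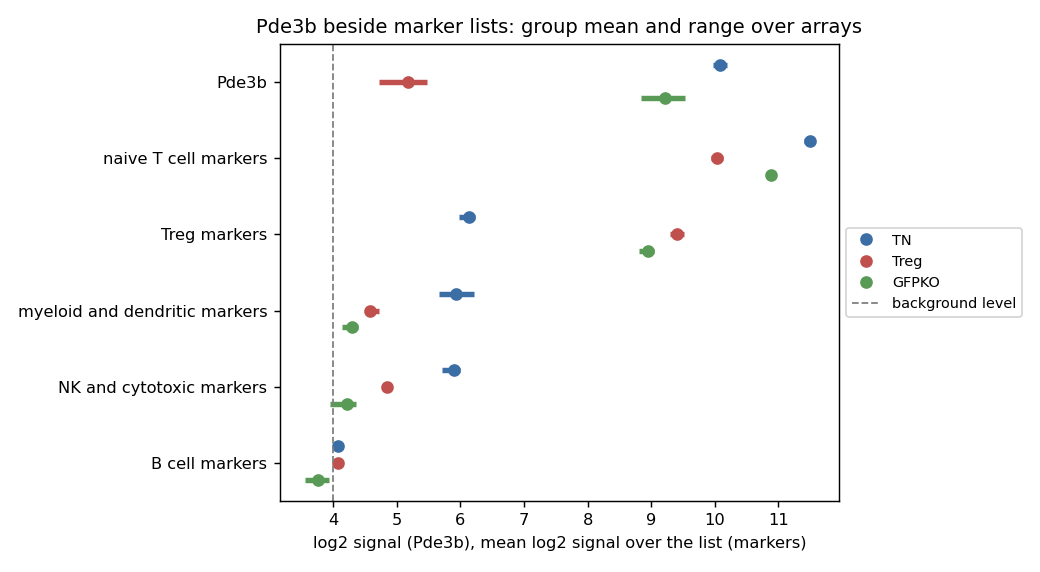
Group mean (points) and range over arrays (lines) of the Pde3b log2 signal and of the mean log2 signal of 5 marker lists, with the background of 3.99 dashed; levels are comparable within a row only. The list mean of naive T cell markers takes the order of Pde3b, TN over GFPKO over the arrays labelled Treg. The list means of myeloid and NK markers are highest in TN. Single genes such as S1pr1, Lyz2 and Nkg7 differ from their list.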

How the data were processed

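Total RNA of 11 samples was hybridised to Affymetrix arrays, 1 per sample. The authors deposited log2 values made with RMA, per the submitters' processing notes, with the log2 scale inferred from their span of 1.54 to 14.65. RMA corrects background and equalises array distributions, which compresses differences near background. Of 45101 probe sets, 64 controls were left out, 35890 had a gene symbol in GEO's platform annotation, and 932 with several symbols were dropped. The rest with 1 symbol gave 18193 genes, of which 18032 matched RefSeq by Entrez ID. Array files give no reads, so the number of arrays limits precision.

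With limma 3.58.1 (R 4.3.3) each group was given 1 mean per gene over all arrays, two-sided, with Benjamini-Hochberg adjustment over all genes and calls at an adjusted p under 0.05. It was tested on simulated data. The members and lists were chosen with earlier results of these data known. Named were every member, phosphodiesterases above background, the 10 largest called signalling genes per comparison plus up to 4 per list, and the 5 genes nearest to Pde3b. Alternatives were each array left out, only the groups compared, a replicate block, the mean of all probe sets, each probe set, median centring, a filter on dim genes, array weights, an actin covariate and a trend in the moderation.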

Additional observations from a re-analysis of the deposited data

Results flagged for a closer look

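The highest and lowest array of each group large enough were compared with the nearest other array, in 44 cases, and chance marks about 1 in 20 of them. For Pde7a, replicate 1 of the arrays labelled Treg stood apart at a log2 signal of 7.41, with the nearest array at 7.09, a gap of 0.77 of the group's range. For Pde10a, replicate 4 of the arrays labelled Treg stood apart at 5.03, with the nearest at 4.52, a gap of 0.84 of the range.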

How the results depend on the processing

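All 54 values of Pde3b under the alternatives kept their direction and moved by less than 1 SD between replicates. They ran from -4.98 to -4.67 for Treg minus TN, -1.10 to -0.68 for GFPKO minus TN and -4.22 to -3.81 for Treg minus GFPKO. Some alternatives could not move a difference: leaving out an array of the third group, fitting only the groups compared and filtering dim genes. For Pde3b, with 1 probe set, the mean of all probe sets could not either. Such fixed values are counted among the 54 and, for the other members, among those that moved by less than 1 SD. Of the values of the other members, 332 moved by less than 1 SD, 19 by more and 3 reversed. The reversals came from probe sets at background, Pde4b at 0.11 and Pde4d at 0.11 for Treg minus TN and Pde4d at 0.17 for Treg minus GFPKO. Averaging all probe sets, dim ones included, gave -0.46 for Pde4b and -0.34 for Pde4d in Treg minus TN. Signalling genes called numbered 37, 37 and 42 with array weights, against 22, 14 and 13, and for Treg minus GFPKO 5 with the actin covariate and 7 to 24 with 1 array left out. All genes called numbered 3223, 5051 and 6756 with array weights, against 1813, 1029 and 1716. For GFPKO minus TN they were 570 with the actin covariate, 562 with only those groups fitted and 644 to 1868 with 1 array left out. For Treg minus GFPKO they were 811 with the actin covariate and 1134 to 3421 with 1 array left out. The cause was not tested. The weights were 0.25, 5.11 and 0.31 for GFPKO replicates 1 to 3. Replicate numbers gave no clear pairing: deviations of same-numbered arrays correlated from -0.29 to 0.61, and of arrays with different numbers from -0.65 to 0.63. With 3 to 5 arrays a group, these ranges cannot settle whether arrays were paired. With the replicate block, Treg minus GFPKO had 6 signalling genes and 1049 genes called. Of the single signalling calls given above, those of Ptger2, Pik3cg and Fos in Treg minus GFPKO were lost with that block. The calls of Adcy7 in Treg minus TN and of Adcy5 in GFPKO minus TN were lost as well.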
